A study of Homo sapiens with 6 samples.

Results

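The Notch genes examined here were 3 receptors (NOTCH1, NOTCH2 and NOTCH3), 4 ligands (JAG1, JAG2, DLL1 and DLL3), the transcription factor RBPJ and 2 of its target genes (HES1 and HEY1). They were chosen by name, and all 10 were found among the 15897 genes of the deposited expression table. Gene expression was measured by RNA-seq of total RNA in 6 libraries labelled H1650, an established human lung adenocarcinoma cell line. 3 libraries were labelled control with a wild type genotype, and 3 were labelled shSETD2, for short hairpin RNA against the histone H3K36 methyltransferase SETD2. The study asked which genes depend on SETD2. The paper describes 3 hairpin constructs delivered by lentivirus, and the labels do not say whether the numbers 1 to 3 of the shSETD2 libraries stand for constructs or for repeats of 1 construct. Nor do they name a control hairpin, or say that the libraries came from separate cultures, so the p-values below measure only the spread between these libraries, which may be technical.

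Notch receptors are single-pass membrane proteins that are activated by ligands of the Jagged and Delta-like families on a neighbouring cell. Ligand binding exposes the receptor to ADAM proteases and then to γ-secretase, which releases the intracellular domain to enter the nucleus, where it joins RBPJ and a Mastermind coactivator on target genes such as those of the HES and HEY repressors. In the lung, the pathway is known for the choice between secretory and ciliated fates in the airway epithelium, and HES1 for holding back neuroendocrine differentiation.

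RBPJ recognises the core letters TGGGAA, so the 250 bases before the start of HES1 and of HES5, another HES gene, are shown with these letters and their reverse complement TTCCCA in capitals. The sequences were taken from the RefSeq promoter table (GRCh38.p14) and each was matched at 1 place on its chromosome of GRCh37. The HES1 window lies on the plus strand at chr3:193853687-193853936, and the HES5 window on the minus strand at chr1:2461703-2461952. Neither overlaps an exon of the GENCODE models used here, though the span that the deposited table gives for HES1 starts within the last 3 bases of its window. HES5 was picked for its promoter after its values were seen.
HES1: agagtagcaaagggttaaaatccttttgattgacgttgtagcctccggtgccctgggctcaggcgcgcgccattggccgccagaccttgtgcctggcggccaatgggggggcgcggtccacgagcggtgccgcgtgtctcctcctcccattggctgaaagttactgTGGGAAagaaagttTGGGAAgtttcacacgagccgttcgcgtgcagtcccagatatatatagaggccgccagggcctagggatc
HES5: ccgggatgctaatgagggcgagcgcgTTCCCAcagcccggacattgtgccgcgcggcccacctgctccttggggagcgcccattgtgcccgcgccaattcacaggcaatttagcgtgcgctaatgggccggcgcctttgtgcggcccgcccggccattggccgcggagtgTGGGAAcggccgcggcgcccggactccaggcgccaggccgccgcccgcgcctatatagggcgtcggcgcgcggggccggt
In HES1, TGGGAA stands at bases 84 to 79 and again at bases 70 to 65 before the start. In HES5, it stands at bases 80 to 75, and TTCCCA at bases 224 to 219. Of 35116 promoter entries of the table, cut to the same 250 bases, 20.8% held TGGGAA on either strand and 5.43% held the longer GTGGGAA, which contains it. The windows differed in GTGGGAA, which stood at 1 place in that of HES1 and at 2 places in that of HES5. Entries were found for 7 of the 10 Notch genes, of which HES1 and 1 of the 5 entries of RBPJ held TGGGAA. These matches describe the letters and were not tested for binding.

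The FPKM values (fragments per kilobase of gene, scaled to the mapped fragments of the library) of the listed genes summed to between 218769 and 224603 in the 6 libraries, and read depth is unknown. Pearson's r of log2(FPKM + 1) across genes, which are not independent replicates, was 0.982 to 0.990 within a group and 0.701 to 0.707 between the groups. Where 3 values are given for a group, they follow the library numbers 1 to 3. SETD2 read 18.0, 10.2 and 17.6 FPKM in control against 8.97, 8.09 and 12.2 in shSETD2. The groups overlapped, with a log2 fold change of -0.58 (adjusted p = 0.0641 in limma), or -0.83 (adjusted p = 6.66e-03) without control library 2 and -0.73 (adjusted p = 0.0420) without shSETD2 library 3. It was -0.45 (adjusted p = 0.181) without control library 1 and -0.25 (adjusted p = 0.377) with median ratio scaling. The libraries are therefore named by their labels. Of 9 markers of lung epithelium, NKX2-1 was the only one listed, with a control mean of 1.65 ± 0.188 FPKM (SD, n = 3), and listed at 0 in all shSETD2 libraries, while NAPSA, FOXA2, SCGB1A1 and 5 surfactant genes were not listed. The summed FPKM of the 9 listed of 10 epithelial markers was 14.8 to 17.0 in the control libraries and 408.3 to 461.7 in the shSETD2 libraries, with KRT7, KRT8 and KRT18 higher and CDH1 lower in the latter. That of 6 mesenchymal markers was 100.8 to 116.3 and 169.7 to 180.0. Of these, VIM, CDH2 and FN1 were higher in the shSETD2 libraries, ZEB2 was lower, and TWIST1 was listed at 0 in all of them. ZEB1 overlapped between the groups. All 8 markers of embryonic kidney were listed, with sums of 26.2 to 28.1 and 46.0 to 55.9. In the shSETD2 libraries PAX2, PAX8, LHX1 and WT1 were higher, while SALL1, SIX2 and EYA1 were listed at 0. Of 5 markers each of endothelium and leukocytes, only EGFL7 (6.06 to 7.06 FPKM in control, 8.08 to 9.56 in shSETD2) and CD68 (1.01 to 1.30 and 1.35 to 1.62) were listed. The part of these differences in the Notch values was not tested, and in bulk RNA fewer cells of a type and less RNA per cell cannot be told apart.

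Differences between the groups were tested in limma on log2(FPKM + 1), for 14068 genes whose mean FPKM reached 0.5, with a trend of variance on intensity. P-values were adjusted over all these genes by Benjamini-Hochberg, and an adjusted p under 0.05 was called. All 10 Notch genes passed this filter. In the shSETD2 libraries 4 of them were higher (NOTCH1, NOTCH2, JAG1 and HES1), 5 were lower (NOTCH3, DLL1, DLL3, RBPJ and HEY1), and JAG2 was not called. Among all genes tested 78.6% were called, 26.8% higher and 51.8% lower, so 9 calls of 10 lie close to the background of this comparison. The groups did not overlap for the same 9 genes, 4 higher and 5 lower, nor for 80.9% of all genes tested, 27.9% higher and 53% lower. The log2 fold changes of the 10 genes had a median of -0.56, beside -0.29 for all genes tested, and ran from -5.33 to 2.05. When each library was scaled by its median ratio to the geometric mean, the median of all genes moved to -0.01, and the same 4 genes were higher and the same 5 lower, beside 76.1% of all genes called. With 3 libraries against 3, the smallest p of an exact permutation test is 0.1, and smaller p-values come from the limma model only; SE is the standard error of a log2 fold change.

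**Figure D1:**
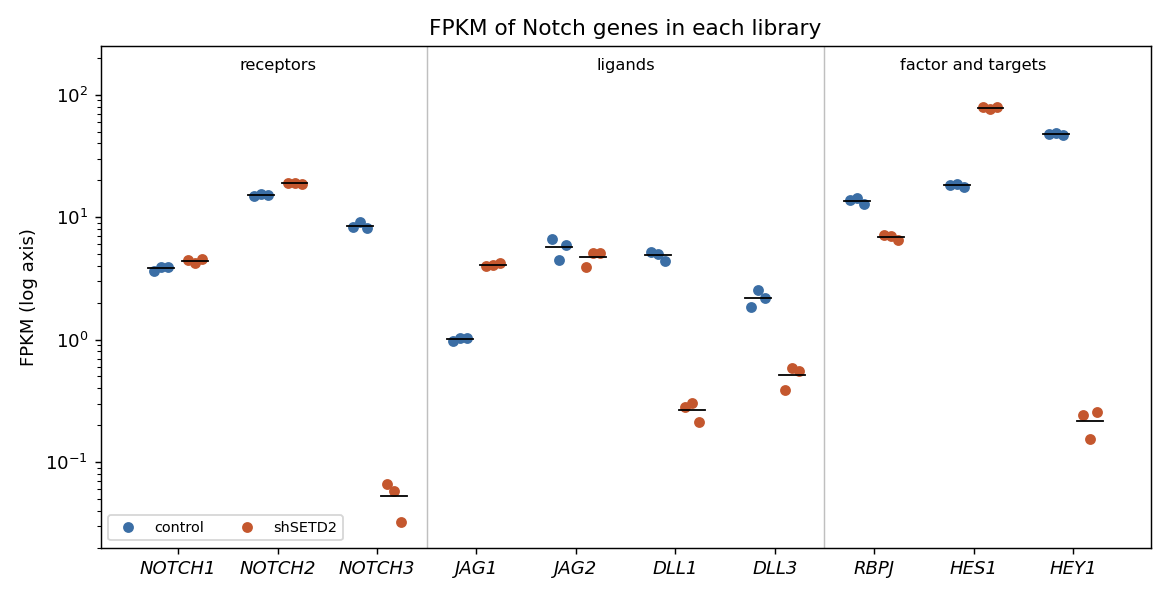
FPKM of the 10 Notch genes in each library on a log axis, with a point for each of the 3 control and 3 shSETD2 libraries and a line at the group mean. The groups stand apart for every gene but JAG2, most widely for NOTCH3 (8.51 against 0.0524 FPKM) and HEY1 (47.9 against 0.217 FPKM).

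Among the receptors, NOTCH3 was nearly lost from the shSETD2 libraries while NOTCH1 and NOTCH2 were slightly higher. NOTCH3 (ENSG00000074181.8_2), a receptor best known from vascular smooth muscle, lies on the minus strand of chromosome 19 (GRCh37, 15269849 to 15311792). It read 8.27, 9.07 and 8.19 FPKM in control against 0.0664, 0.0584 and 0.0325 in shSETD2. Every shSETD2 library lay far below every control library. The mean was 162.3-fold higher in control, and the log2 fold change was -3.17 (SE 0.060, adjusted p = 7.24e-08 in limma). Because 1 is added before the logarithm, low FPKM values make a log2 fold change smaller than the ratio of the means, and with a pseudocount of 0.01 that of NOTCH3 was -7.14.

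NOTCH2 (ENSG00000134250.19_3, minus strand of chromosome 1, 120454176 to 120612240) was the receptor with the highest level in both groups. It had FPKM values of 14.8, 15.4 and 15.2 in control against 18.9, 18.8 and 18.8 in shSETD2. The shSETD2 libraries lay together above the control libraries, and the log2 fold change came to 0.30 (SE 0.037, adjusted p = 3.41e-04 in limma), or 0.63 with median ratio scaling. NOTCH2NL, a partial copy of NOTCH2, was at 8.97 ± 0.715 FPKM in control and 9.57 ± 0.968 in shSETD2 (SD, n = 3; adjusted p = 0.418 in limma). Whether reads matching both genes were split or assigned to 1 of them is not stated, so the level of NOTCH2 is uncertain to that extent.

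NOTCH1 (ENSG00000148400.9_2, minus strand of chromosome 9, 139388896 to 139440314), the receptor mutated in T-cell leukaemia, was at 3.64, 3.93 and 3.91 FPKM in control. In shSETD2 it was at 4.49, 4.25 and 4.53. The groups did not overlap, but the rise was the smallest of the 4, the log2 fold change being 0.17 (SE 0.054, adjusted p = 0.0260 in limma). The call was lost when control library 1 (0.14, adjusted p = 0.0785), shSETD2 library 1 (0.16, adjusted p = 0.0736) or shSETD2 library 3 (0.15, adjusted p = 0.0776) was left out. With median ratio scaling the log2 fold change was 0.45.

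FPKM is scaled to gene length, so levels can be set side by side between genes. The 3 receptors summed to 27.5 ± 0.833 FPKM in control and 23.3 ± 0.135 in shSETD2 (SD, n = 3). NOTCH3 made up 30.98% ± 0.997 of this sum in control and 0.225% ± 0.0760 in shSETD2. The share of NOTCH2 was 55.1% ± 0.824 in control and 80.8% ± 0.525 in shSETD2, and that of NOTCH1 13.9% ± 0.342 and 19.0% ± 0.557. For each of the 3 shares the groups did not overlap (exact two-sided permutation test, p = 0.1, the smallest possible, and 0.1 after adjustment over 9 sums and shares). The 3 shares are parts of the same sum and not separate results. A smaller share of NOTCH3 by itself makes those of NOTCH1 and NOTCH2 larger.

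**Figure D2:**
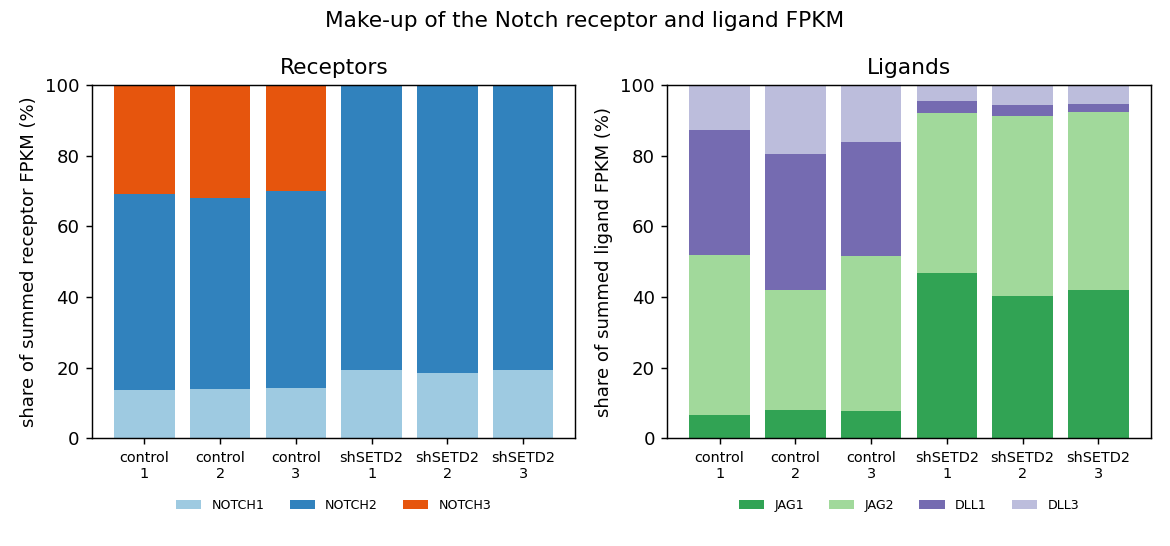
Share of each gene in the summed FPKM of the 3 receptors (left) and the 4 ligands (right), as stacked bars in percent for each library. NOTCH3 takes 30.0% to 32.0% of the receptor sum in the control libraries and is hardly visible in the shSETD2 libraries, where JAG1 takes 40.2% to 46.6% of the ligand sum.

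The ligands moved in both directions. JAG1 (ENSG00000101384.11_2, minus strand of chromosome 20, 10618332 to 10654755), the Jagged ligand mutated in Alagille syndrome, was at 0.974, 1.04 and 1.03 FPKM in control. It was at 4.01, 4.05 and 4.25 in shSETD2. The 2 groups were tight and did not overlap, with a mean 4.05-fold higher in shSETD2 and the log2 fold change at 1.34 (SE 0.052, adjusted p = 1.39e-06 in limma).

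JAG2 (ENSG00000184916.8_3, minus strand of chromosome 14, 105607318 to 105635161), the second Jagged ligand, had FPKM values of 6.63, 4.45 and 5.96 in control against 3.91, 5.13 and 5.14 in shSETD2. Control library 2 lay below 2 of the shSETD2 libraries, so the groups overlapped. The log2 fold change was -0.22 with a 95% interval of -0.58 to 0.15 (adjusted p = 0.229 in limma). Control library 2 decided the call, since without it the log2 fold change was -0.36 (adjusted p = 0.0461). With median ratio scaling the sign was reversed (0.08, adjusted p = 0.644). The listed gene AL512356.1 overlaps exons of JAG2 on the same strand, and it was at 0.495 FPKM in shSETD2 library 1 and at 0 in the others.

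Both Delta-like ligands fell. DLL1 (ENSG00000198719.8_2, minus strand of chromosome 6, 170591294 to 170615653), a ligand that activates Notch on neighbouring cells, had FPKM values of 5.18, 5.02 and 4.41 in control against 0.281, 0.301 and 0.213 in shSETD2. The groups lay far apart. The mean was 18.4-fold higher in control, and the log2 fold change was -2.21 (SE 0.072, adjusted p = 6.35e-07 in limma), or -4.16 with a pseudocount of 0.01. FAM120B overlaps exons of DLL1 on the opposite strand and was at 12.8 to 13.2 FPKM in control and 7.46 to 8.31 in shSETD2. The library kit marks strand, but whether the quantification used it is not stated.

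DLL3 (ENSG00000090932.10_2, plus strand of chromosome 19, 39989535 to 39999121), a divergent Delta-like protein found mostly inside the cell and known from neuroendocrine tumours, was at 1.86, 2.54 and 2.18 FPKM in control. In shSETD2 it was at 0.391, 0.583 and 0.555. Every shSETD2 library lay below every control library, and the log2 fold change came to -1.08 (SE 0.098, adjusted p = 7.31e-05 in limma). It was -0.63 with quantile normalization and -2.09 with a pseudocount of 0.01.

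The 4 ligands summed to 13.8 ± 0.814 FPKM in control and 9.61 ± 0.879 in shSETD2 (SD, n = 3). In control, JAG2 took 41.1% ± 6.10 of this sum, DLL1 35.4% ± 3.02, DLL3 16.1% ± 3.38 and JAG1 7.39% ± 0.666. In shSETD2 the same shares were 49.0% ± 3.03 for JAG2, 2.79% ± 0.614 for DLL1, 5.27% ± 0.643 for DLL3 and 42.9% ± 3.32 for JAG1. The groups did not overlap for any of the 4 shares (exact two-sided permutation test, p = 0.1, the smallest possible), though for JAG2 the nearest libraries were at 45.3% and 45.5%. These shares too are parts of the same sum. The share of JAG2 was larger in shSETD2, while its mean FPKM was lower there and not called.

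In the nucleus, RBPJ was lower and its 2 target genes moved in opposite directions. RBPJ (ENSG00000168214.20_4, plus strand of chromosome 4, 26165077 to 26436753), which carries the Notch intracellular domain to DNA and represses targets in its absence, was at 13.9, 14.3 and 12.8 FPKM in control. It was at 7.09, 6.97 and 6.53 in shSETD2. All shSETD2 libraries lay below all control libraries. The control mean was 1.99-fold that of shSETD2, and the log2 fold change was -0.90 (SE 0.059, adjusted p = 1.46e-05 in limma), or -0.58 with median ratio scaling.

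HES1 (ENSG00000114315.3_2, plus strand of chromosome 3, 193853934 to 193856521), a repressor of the basic helix-loop-helix class whose promoter is printed above, was at 18.2, 18.8 and 17.5 FPKM in control. In shSETD2 it was at 79.3, 76.0 and 79.0, higher than any other of the 10 genes. The groups were far apart, with a mean 4.30-fold higher in shSETD2 and the log2 fold change at 2.05 (SE 0.041, adjusted p = 8.77e-08 in limma).

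HEY1 (ENSG00000164683.16_3, minus strand of chromosome 8, 80676245 to 80680098), a related repressor that can pair with HES1, showed the reverse. It was at 48.0, 48.7 and 46.9 FPKM in control, the highest of the 10 genes there, and at 0.242, 0.153 and 0.257 in shSETD2. No pair of libraries came near to overlapping. The mean was 220.2-fold higher in control, and the log2 fold change of -5.33 (SE 0.053, adjusted p = 9.05e-09 in limma) ranked 65 by size among the 14068 genes tested. HES1 ranked 1060 and NOTCH3 361.

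**Figure D3:**
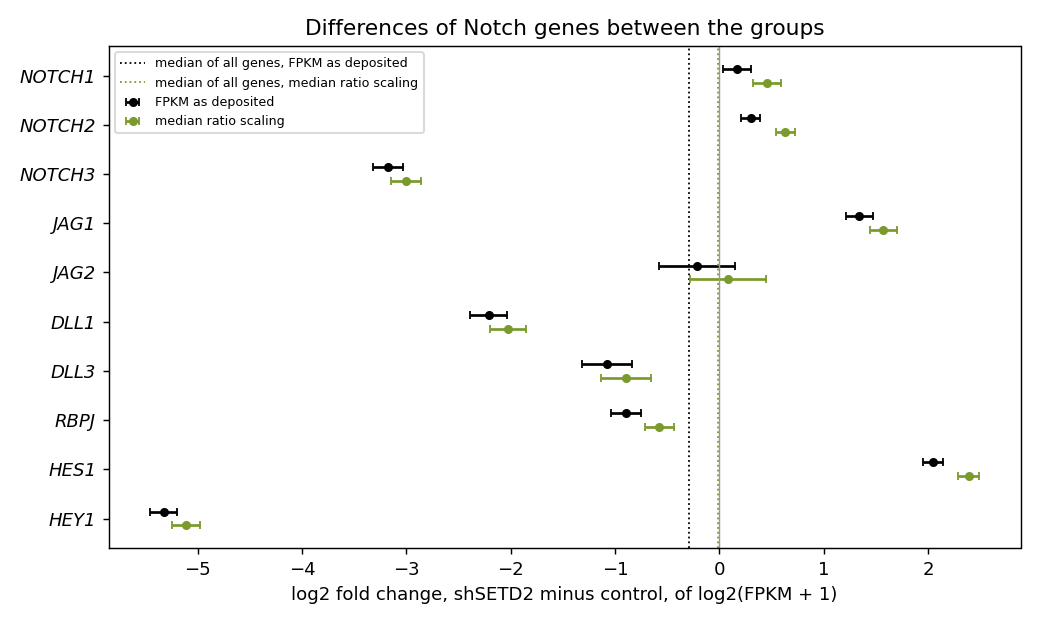
Log2 fold change of each Notch gene, shSETD2 minus control on the log2(FPKM + 1) scale, with 95% intervals from limma (n = 3 per group), for FPKM as deposited (black) and after median ratio scaling (green). Dotted lines mark the median of all genes tested (-0.29 and -0.01), and JAG2 is the gene whose intervals include 0.

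The order of the levels differed between the groups. In control it ran HEY1, HES1, NOTCH2, RBPJ, NOTCH3, JAG2, DLL1, NOTCH1, DLL3 and JAG1 from high to low, and among neighbours only JAG2 and DLL1 overlapped. In shSETD2 it ran HES1, NOTCH2, RBPJ, JAG2, NOTCH1, JAG1, DLL3, DLL1, HEY1 and NOTCH3. There JAG2 overlapped NOTCH1, NOTCH1 overlapped JAG1, and DLL1 overlapped HEY1. The genes nearest to HES1 over the 6 libraries, by Euclidean distance of log2(FPKM + 1), were HIF1A (0.17), LDOC1 (0.32) and KLF10 (0.39). HIF1A, which encodes the oxygen-regulated subunit of hypoxia-inducible factor, was at 17.4 ± 0.361 FPKM in control and 78.1 ± 3.93 in shSETD2 (SD, n = 3). Nearest to HEY1 were ID4 (0.53), an inhibitor of helix-loop-helix factors, BEX4 (0.65) and NEFM (0.76), both of the latter listed at 0 in all shSETD2 libraries. ID4 was at 42.6 ± 0.175 FPKM in control and 0.0236 ± 0.0409 in shSETD2 (SD, n = 3).

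Another 65 genes of the pathway were listed by role, of which 58 had values and 56 were tested. In the shSETD2 libraries 20 were higher and 26 lower, beside 26.8% and 51.8% of all genes tested. Their median log2 fold change was -0.13, against -0.29 for all genes. The split depended on the scaling, since median ratio scaling gave 26 higher and 21 lower, beside 37.7% and 38.3% of all genes. Higher genes thus made up 43.5% of the calls as deposited and 55.3% after scaling, beside 34.1% and 49.6% of the calls among all genes.

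**Figure D4:**
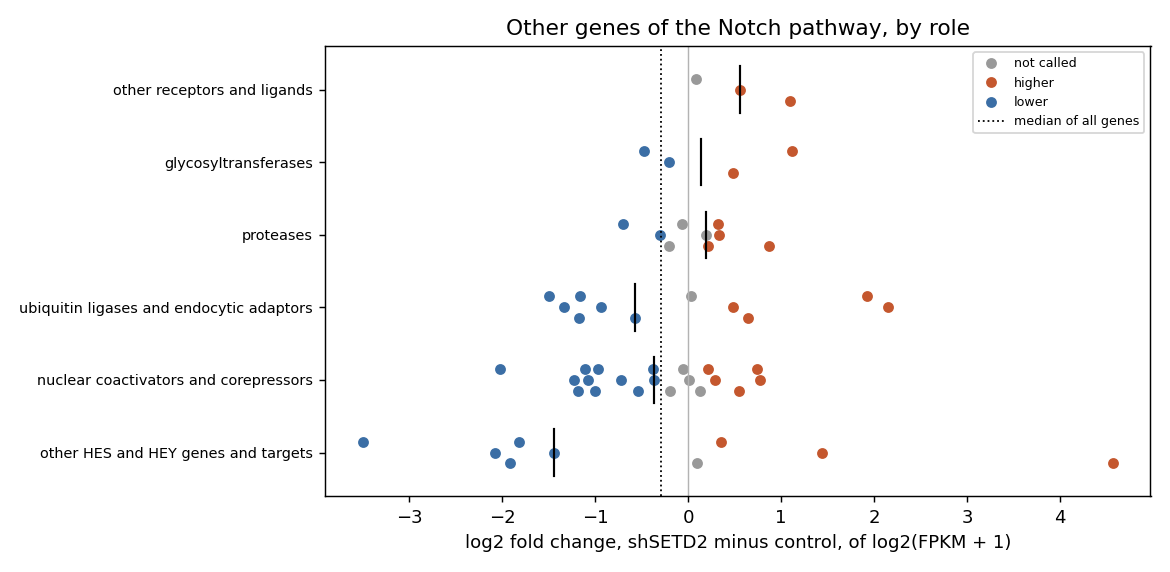
Log2 fold change (shSETD2 minus control, log2(FPKM + 1)) of the 56 tested pathway genes by role, with a point per gene coloured by its limma call and a bar at the median of each role. The dotted line is the median of all genes tested (-0.29), and the other HES and HEY genes and targets have the lowest median (-1.44) with values from -3.50 to 4.57.

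Of the other HES and HEY genes and targets, 3 of 9 rose and 5 fell, near the 26.8% and 51.8% of all genes tested, with a median log2 fold change of -1.44. NRARP, an inhibitor of Notch that is itself a Notch target, had FPKM values of 19.1, 19.9 and 16.6 in control against 0.766, 0.775 and 0.633 in shSETD2. Its log2 fold change was -3.50 (SE 0.080, adjusted p = 1.49e-07 in limma). HEYL, a relative of HEY1, was at 3.00, 3.32 and 3.36 FPKM in control and listed at 0 in all 3 shSETD2 libraries. HES5 was likewise at 2.46, 2.91 and 3.02 FPKM in control and listed at 0 in all shSETD2 libraries, and its promoter window, like that of HES1, holds the TGGGAA letters at 2 places when both strands are read. HES4 fell from 50.7 ± 1.70 to 13.7 ± 1.47 FPKM and HEY2 from 2.92 ± 0.254 to 0.446 ± 0.0796 (SD, n = 3). HES4, HES5, HES6, HES7 and HEY2 were named after their values were seen. HES1 thus differed in direction from HES4, HES5, HEY1, HEY2 and HEYL, while HES7 rose (0.989, 1.27 and 1.22 FPKM in control, 1.78, 1.80 and 1.68 in shSETD2) and HES6 was not called (adjusted p = 0.664 in limma). No fold is given for HEYL and HES5, whose fitted values depend on the pseudocount, and the median is that of HEY2, above both. Among 7 genes of this group with a promoter entry, HES4, HES5, HEY2 and HEYL held TGGGAA, beside 20.8% of all promoter entries. NRARP, which fell, did not hold these letters, nor did HES7, which rose, or HES6, which was not called. HES1, which rose, held them. A link between these letters and the direction was not tested.

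CCND1, which encodes cyclin D1 and is a target of many pathways besides Notch, rose from 5.82, 7.47 and 6.45 FPKM in control to 178.9, 177.8 and 177.8 in shSETD2. MYC, a growth regulator of which the same holds, had FPKM values of 2.53, 2.00 and 2.66 in control against 2.97, 11.3 and 14.9 in shSETD2. shSETD2 library 1 lay just above control library 3, far from the other two. The log2 fold change of MYC was 1.44 (adjusted p = 0.0348 in limma). The call was lost with each library but shSETD2 library 1 left out, at adjusted p-values from 0.0725 to 0.109, while without shSETD2 library 1 the log2 fold change was 2.05.

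Among the other receptors and ligands, 2 of 3 tested rose, beside 26.8% of all genes. DLL4, the Delta-like ligand of endothelial sprouting, was at 0.401 ± 0.104 FPKM in control and 2.00 ± 0.199 in shSETD2, so it rose while DLL1 and DLL3 fell. DLK2, a non-canonical relative, read 1.08, 1.03 and 0.484 FPKM in control against 1.74, 1.74 and 1.66 in shSETD2. NOTCH4 and DLK1 were not listed.

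The enzymes that attach sugars to the receptors' EGF repeats divided 2 and 2, beside 26.8% of all genes higher and 51.8% lower. LFNG, the fringe enzyme that biases receptors towards Delta-like ligands, was at 0.521 ± 0.0227 FPKM in control and 2.30 ± 0.0183 in shSETD2 (log2 fold change 1.12, adjusted p = 2.62e-06 in limma, or 2.12 with a pseudocount of 0.01). POFUT1, which adds O-fucose, rose from 15.7 ± 0.586 to 22.3 ± 0.251 FPKM (SD, n = 3). On the log2 scale this was 0.48, or 0.82 with median ratio scaling. RFNG, another fringe enzyme, was at 5.84 ± 0.242 and 4.91 ± 0.208, but its log2 fold change of -0.21 turned to 0.09 (adjusted p = 0.191) with median ratio scaling and lost its call with quantile normalization (0.437). POGLUT1, which adds O-glucose, was at 3.10 ± 0.810 and 1.91 ± 0.125 (log2 fold change -0.48, adjusted p = 0.0187). Its call was lost without shSETD2 library 1 (adjusted p = 0.0503), without shSETD2 library 3 (0.0574), with median ratio scaling (0.1702) and with quantile normalization (0.394).

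Of the 9 proteases, which free the ligand-bound receptor in successive cuts, 4 rose, 2 fell and 3 were not called, beside 26.8% of all genes higher and 51.8% lower. The 2 ADAM proteases of the first cut diverged. ADAM10 had FPKM values of 4.03, 4.29 and 4.14 in control against 7.56, 8.99 and 8.83 in shSETD2, while ADAM17 was at 13.3, 12.7 and 11.9 in control and at 7.01, 8.11 and 7.04 in shSETD2. Their log2 fold changes were 0.87 (SE 0.073, adjusted p = 4.72e-05) and -0.71 (SE 0.071, adjusted p = 1.19e-04) in limma, the latter -0.38 with median ratio scaling. PSEN2, a catalytic subunit of γ-secretase, was at 4.53 ± 0.429 FPKM in control and 3.49 ± 0.568 in shSETD2 (SD, n = 3), and its call (adjusted p = 0.0370) was lost with control library 1 or 3 or shSETD2 library 2 or 3 left out (adjusted p from 0.0737 to 0.112) and with median ratio scaling (0.869) or quantile normalization (0.545).

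Ubiquitin ligases and endocytic adaptors, which drive the uptake of ligands and the turnover of receptors, gave 4 higher and 6 lower of 11 tested, beside 26.8% and 51.8% of all genes. MIB1, the ligase that activates ligands by endocytosis, fell from 37.3 ± 1.04 to 14.2 ± 0.783 FPKM, and its relative MIB2 from 3.21 ± 0.193 to 0.495 ± 0.0473 (SD, n = 3). DTX3L of the Deltex family rose from 1.28 ± 0.208 to 9.08 ± 0.337 FPKM. ITCH, a ligase that promotes Notch degradation, rose from 13.6 ± 2.15 to 54.8 ± 11.2 FPKM (SD, n = 3), with 67.7, 49.4 and 47.4 in shSETD2.

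Of 20 nuclear coactivators and corepressors, 5 rose and 11 fell, close to the 26.8% and 51.8% of all genes tested, with a median log2 fold change of -0.37. The largest falls were those of the Groucho-type corepressors TLE4, from 19.5 ± 0.708 to 4.04 ± 0.151 FPKM, and TLE3, from 7.70 ± 0.408 to 2.71 ± 0.0624 (SD, n = 3). TLE2 of the same family rose from 1.67 ± 0.0904 to 3.57 ± 0.296 FPKM (SD, n = 3).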

How the data were processed

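Per the labels and the paper's methods, total RNA was extracted with Trizol, libraries were made with a stranded kit, and reads were aligned by the authors with Hisat2 against the hg19 build (GRCh37). They quantified genes with Ballgown and deposited FPKM per gene and library. Tool versions and the rule that chose the listed genes are not given in the sources used here. A second deposited table holds the authors' own comparison of the groups (log2 fold changes, p-values and q-values) and was not used.

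No common step was seen among low FPKM values: in any pair of libraries, the commonest ratio held at most 6.98% of genes low in both. Some pairs had as few as 42 such genes, and these may hold different small read numbers. The check thus cannot decide whether a step exists. Only FPKM was used here, so read depth is unknown, and error is known only from the spread between libraries. The SD is that over the 3 libraries of a group. The SE of limma pools both groups and borrows from the variance trend over all genes tested.

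Tests used limma 3.58.1 in R 4.3.3 (lmFit, then eBayes with an intensity trend) on the log2(FPKM + 1) scale, as described in the report. The fit was first run on simulated data in which most genes did not change. That run cannot check the calls of a comparison in which 78.6% of genes were called. Shares were compared with exact permutation tests (scipy 1.17.1). The alternatives were pseudocounts of 0.1 and 0.01, no filter or a mean FPKM of at least 5, median ratio, quantile and upper quartile scaling, no intensity trend, a replicate block and each library left out. Positions are those of the deposited table, and overlaps of exons were read from GENCODE gene models on GRCh37. The Notch genes and all lists were chosen with earlier results of these data known. Besides the 10 Notch genes, the text names the 2 largest called rises and falls in each role and the 3 genes nearest to the Notch genes with the largest rise and fall. A few genes that this rule or the marker lists hold are not reported here. Protein sequences were not used here.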

Additional observations from a re-analysis of the deposited data

How the results depend on the processing

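Of the 10 Notch genes, 8 kept their direction and their call under each alternative in which they were tested. These are NOTCH2, NOTCH3, JAG1, DLL1, DLL3, RBPJ, HES1 and HEY1. JAG2 turned from -0.22 to 0.081 (log2 fold change) with median ratio scaling, and RFNG from -0.21 to 0.089. With single libraries left out, NOTCH1 ran from 0.14 to 0.19, JAG2 from -0.36 to -0.11 and SETD2 from -0.83 to -0.45, and the 10 genes gave 3 to 4 higher and 5 to 6 lower. With a mean FPKM of at least 5, fewer genes were tested, which left 2 Notch genes higher and 2 lower, 13 pathway genes higher and 16 lower, and 5647 called genes in all, 2401 higher and 3246 lower. Replicate numbers did not pair the libraries, since deviations from the group means correlated at -0.02, 0.02 and -0.01 for same-numbered libraries. With a replicate block, NOTCH1 kept its 0.17 at an adjusted p of 0.0626 and SETD2 its -0.58 at 0.0156, and 10976 genes were called in place of 11057. No library correlated best with its own number. Without read counts, the low FPKM of NOTCH3, DLL1 and HEY1 in the shSETD2 libraries carries an unknown counting error.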
